A study of Homo sapiens with 8 samples.

Results

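The miR-30 family was examined in HCT116, an epithelial cell line from a human colorectal cancer, through the 10 mature arms named miR-30a to miR-30e that were listed by name from the count table. All 10 were among its 2026 entries, as 5 guide arms (5p) and 5 passenger arms (3p), and 8 of them were among the 570 miRNAs with enough reads to be tested. Per the labels' protocols, cells were cultured as spheroids without serum, with growth factors added, in flasks that prevent attachment, and were then separated by flow cytometry after staining for CD44v6 and with propidium iodide, which marks dead cells. CD44v6 is a variant of the hyaluronan receptor CD44 that includes the variable exon of that name. The CD44v6-positive and CD44v6-negative groups therefore share the cell line, the spheroid culture and the sort, and neither carries a drug treatment in its labels. Each group had 2 samples (4 in all), because the 8 sequencing entries carry 4 combined identities and the table has 1 column for each. The series set out to find miRNAs linked to stem-like cells of colorectal cancer, for which CD44v6 serves as a surface marker. A single cell line was used, and whether the samples of a group were separate cultures is not stated, so the spread between them may be technical.

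MicroRNAs are cut from hairpin precursors by Drosha and Dicer, and a strand of the resulting duplex is loaded into an Argonaute protein while the other is mostly degraded. The loaded strand, the guide, finds messenger RNAs through its seed, bases 2 to 8. The miR-30 guides share a seed and are known to repress the epithelial-mesenchymal transition factor SNAI1 and the autophagy gene BECN1, and they are abundant in many epithelia.

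Mature sequences were matched by name in the RefSeq table for GRCh38.p14, which gave 6 of the 10 members; miR-30b-5p, miR-30b-3p, miR-30d-5p and miR-30d-3p are named only. The sequences are shown 5′ to 3′ with the seed in capitals, because the seeds divide the arms into groups and because near-identical arms are compared below. The guides share the seed GUAAACA:
miR-30a-5p: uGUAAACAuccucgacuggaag
miR-30c-5p: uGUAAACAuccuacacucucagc
miR-30e-5p: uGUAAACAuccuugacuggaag

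The passengers with a matched sequence form 2 seed groups. The arms miR-30a-3p and miR-30e-3p share UUUCAGU, and miR-30c-2-3p shares UGGGAGA with miR-30c-1-3p, an arm of the same family that is not among the 10 but is given here since its seed is that of a member:
miR-30a-3p: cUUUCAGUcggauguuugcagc
miR-30e-3p: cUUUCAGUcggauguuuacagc
miR-30c-1-3p: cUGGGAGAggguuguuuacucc
miR-30c-2-3p: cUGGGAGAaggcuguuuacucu

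Counting from 1 at the 5′ end, miR-30e-5p and miR-30a-5p differ by 1 substitution, U13C, and miR-30e-3p and miR-30a-3p by 1 substitution, A18G. The 2 passengers of miR-30c differ at 3 positions, G9A, U12C and C22U. miR-30e-5p and miR-30c-5p share their first 12 bases. Of the 1807 table entries with a sequence, those under a single name were searched, and none outside the family had any of these 3 seeds. Entries that join several names were not searched. How mismatched reads and reads that map to several places were treated is not given in the sources used here, so reads of the 2 pairs that differ by 1 base cannot be assigned with certainty.

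The hairpins lie in 3 clusters on GRCh38. MIR30E (chr1:40754355-40754446) and MIR30C1 (chr1:40757284-40757372) are on the plus strand in an intron of NFYC, which encodes a subunit of the CCAAT-binding factor NF-Y. MIR30C2 (chr6:71376960-71377031) and MIR30A (chr6:71403551-71403621) are on the minus strand in an intron of the long noncoding RNA genes LINC00472 and AL136164.2. MIR30B and MIR30D are together on chromosome 8. miR-30c-5p has the same sequence from MIR30C1 and MIR30C2, so its reads cannot be assigned to a cluster by sequence.

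Depth differed between the groups, at 4592278 to 7880631 reads in the CD44v6-negative and 154481 to 919802 reads in the CD44v6-positive samples, a 51.0-fold span. The miRNAs fixed as intestinal epithelial markers were all read in every sample (8 of 8), and CD44v6 itself cannot be checked in miRNA data. Of 18 markers of blood, endothelium, stroma, muscle, liver and nerve, 14 were read in every sample and the muscle marker miR-206 had 0 reads in all. The summed level of the 18 was 7007 to 11043 CPM in the CD44v6-negative and 7449 to 11705 CPM in the CD44v6-positive samples, where CPM is reads of a miRNA per 1000000 reads after TMM scaling, as in all levels below. A lower level of an arm in a sorted population can reflect fewer cells that make it or less of it per cell. Depth also went with the group, so a difference between the libraries cannot be told apart from either.

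The family as a whole took a smaller part of the CD44v6-positive libraries. The 10 members held 2.23% and 3.11% of all miRNA reads in CD44v6-negative samples 1 and 2, and 1.588% and 1.599% in CD44v6-positive samples 1 and 2. The exact 95% binomial intervals of the 2 groups did not overlap (lowest CD44v6-negative bound 2.22%, highest CD44v6-positive bound 1.66%), and such intervals cover counting error only, since amplified reads are not independent molecules. Guides made up 95.4% to 96.1% of the family's reads in every sample, with miR-30c-1-3p counted in the family.

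With edgeR's quasi-likelihood test at an adjusted p of 0.05, 0 of the 8 tested members passed, as did 0% of the 570 miRNAs. Of the 8, 7 had a negative and 1 a positive log2 fold change (CD44v6-positive over CD44v6-negative), with a median of -0.71 against -0.31 over all 570, of which 55.4% were negative. The sign of each of the 8 was the same with DESeq2 size factors, upper quartile and total count scaling, and turned for miR-30c-5p and miR-30d-5p with the GC correction given below. In TMM-scaled CPM, both CD44v6-positive samples lay below both CD44v6-negative samples for 6 of the 8, and for 34.6% of all tested miRNAs. As unscaled parts of all miRNA reads, miR-30c-5p and miR-30d-5p overlapped between the groups. At an unadjusted p under 0.05 there were 3 members, all lower, against 17.5% of all tested miRNAs in that direction. DESeq2 called 2 members, both guides and both lower, against 5.25% of the miRNAs it adjusted, and limma-voom called 0 members (0.702% of all in either direction).

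**Figure D1:**
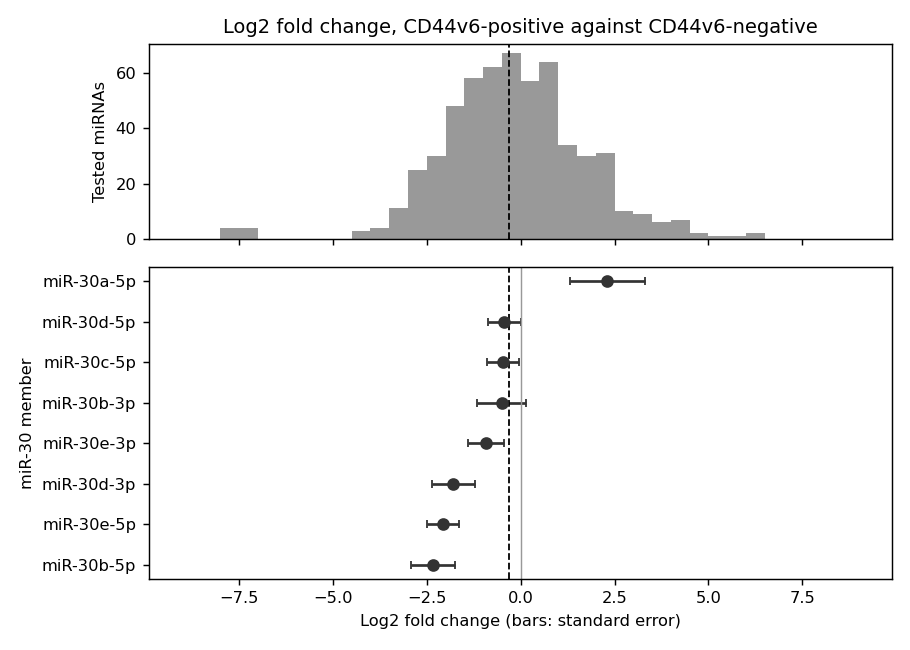
Upper panel, number of tested miRNAs by log2 fold change (CD44v6-positive over CD44v6-negative); lower panel, the 8 tested miR-30 members with standard errors; the dashed line is the median of all tested miRNAs, -0.31. miR-30b-5p and miR-30e-5p lie near -2, miR-30c-5p and miR-30d-5p near the dashed line, and miR-30a-5p alone is positive (with the GC correction, miR-30c-5p and miR-30d-5p are also positive).

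The guide of the NFYC cluster, hsa-miR-30e-5p, was the most abundant member in CD44v6-negative cells. It was at 13124 and 11229 CPM in CD44v6-negative samples 1 and 2, and at 3058 and 2762 CPM in CD44v6-positive samples 1 and 2. The groups did not overlap, and the samples of each group lay close together in CPM. As unscaled parts of all reads, the CD44v6-negative samples lay further apart. By reads it ranked 21st and 18th among all entries in the CD44v6-negative samples, and 50th and 47th in the CD44v6-positive samples, a comparison that uses no scaling between libraries. The log2 fold change was -2.06 ± 0.42 (SE, n = 2 per group), a level 4.18-fold lower, with an edgeR adjusted p of 0.0787 and a DESeq2 adjusted p of 0.0161. Its passenger hsa-miR-30e-3p, which carries the UUUCAGU seed, was at 1026 and 713 CPM in the CD44v6-negative and 467 and 448 CPM in the CD44v6-positive samples. These groups also did not overlap, and the log2 fold change was -0.92 ± 0.48 (edgeR adjusted p = 0.238).

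The other passenger of the NFYC cluster did not share the direction of miR-30e. miR-30c-1-3p was at 22.4 and 22.7 CPM in the CD44v6-negative and at 34.5 and 31.3 CPM in the CD44v6-positive samples, the last from 6 reads. The log2 fold change was 0.56 ± 0.59 (edgeR adjusted p = 0.563), less than its standard error, so arms of 2 hairpins in the same intron had values of opposite sign, and the difference between them was not tested. The guide hsa-miR-30c-5p was at 3489 and 2843 CPM in the CD44v6-negative samples and 2347 and 2194 CPM in the CD44v6-positive samples. Its groups did not overlap in CPM. They did overlap as unscaled parts of all miRNA reads, at 0.231% and 0.342% against 0.236% and 0.273%. Its log2 fold change was -0.48 ± 0.42 (edgeR adjusted p = 0.489), near the median of all miRNAs.

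The reads of the miR-30c passengers bear on which hairpin was read. hsa-miR-30c-2-3p was not read in any sample (0 reads), a count that allows up to 0.574 and 0.544 CPM in the CD44v6-negative and 3.24 and 15.6 CPM in the CD44v6-positive samples (3 reads). Against 117, 125, 32 and 6 reads of miR-30c-1-3p in the same order, 0 of 280 reads with either name allow a MIR30C2 share of up to 1.07% over all samples. In CD44v6-positive sample 2 alone, 0 of 6 reads limit little. The share says which passenger was read and not which hairpin gave the shared guide.

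In the chromosome 8 cluster the 2 guides stood apart. hsa-miR-30d-5p was at 11855 and 9192 CPM in CD44v6-negative and 9143 and 6420 CPM in CD44v6-positive samples. The nearest samples of the 2 groups were almost level, the log2 fold change was -0.44 ± 0.44 (edgeR adjusted p = 0.541), and the rank by reads was 24th and 26th in the CD44v6-negative against 24th and 22nd in the CD44v6-positive samples. hsa-miR-30b-5p, from the neighbouring hairpin, was at 3754 and 1546 CPM in CD44v6-negative samples 1 and 2 and at 570 and 479 CPM in the CD44v6-positive samples. The groups did not overlap, although the CD44v6-negative samples themselves differed by more than 2-fold in CPM, and by less as unscaled parts of all reads. Its log2 fold change was -2.33 ± 0.59, a level 5.04-fold lower, with an edgeR adjusted p of 0.110 and a DESeq2 adjusted p of 0.0145, and without CD44v6-negative sample 1 it was -1.49.

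The passengers of the chromosome 8 cluster had the reverse order. hsa-miR-30d-3p was at 199 and 311 CPM in the CD44v6-negative and 78.8 and 67.7 CPM in the CD44v6-positive samples, the last 2 from 73 and 13 reads. Its groups did not overlap, and its log2 fold change was -1.79 ± 0.56 (edgeR adjusted p = 0.117, DESeq2 adjusted p = 0.0640). hsa-miR-30b-3p was at 69.8 and 34.99 CPM in the CD44v6-negative samples and 33.5 and 41.7 CPM in the CD44v6-positive samples. These groups overlapped, and the log2 fold change, -0.50 ± 0.65, had an edgeR adjusted p of 0.630.

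Base composition moved with the fold changes across all tested miRNAs. Over 569 tested miRNAs, which are not independent replicates, the log2 fold change correlated with the GC content of the hairpin arm at a Pearson r of 0.379. The arm side of the hairpin held 36.4% GC for miR-30b-5p, 43.6% for miR-30c-5p, 45.7% for miR-30d-5p, 47.8% for miR-30e-5p and 51.4% for miR-30a-5p. Of the 5 guides, miR-30b-5p with the least GC had the most negative value (-2.33), and miR-30a-5p with the most had the only positive value (2.31). Between them, miR-30c-5p (-0.48) and miR-30d-5p (-0.44) held less GC than miR-30e-5p (-2.06) and had smaller fold changes. With a GC correction chosen after seeing the data, miR-30b-5p was at -1.05 and miR-30e-5p at -1.56, while miR-30c-5p and miR-30d-5p turned positive at 0.31 and 0.20. The part of base composition in the differences between samples was not tested further.

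**Figure D2:**
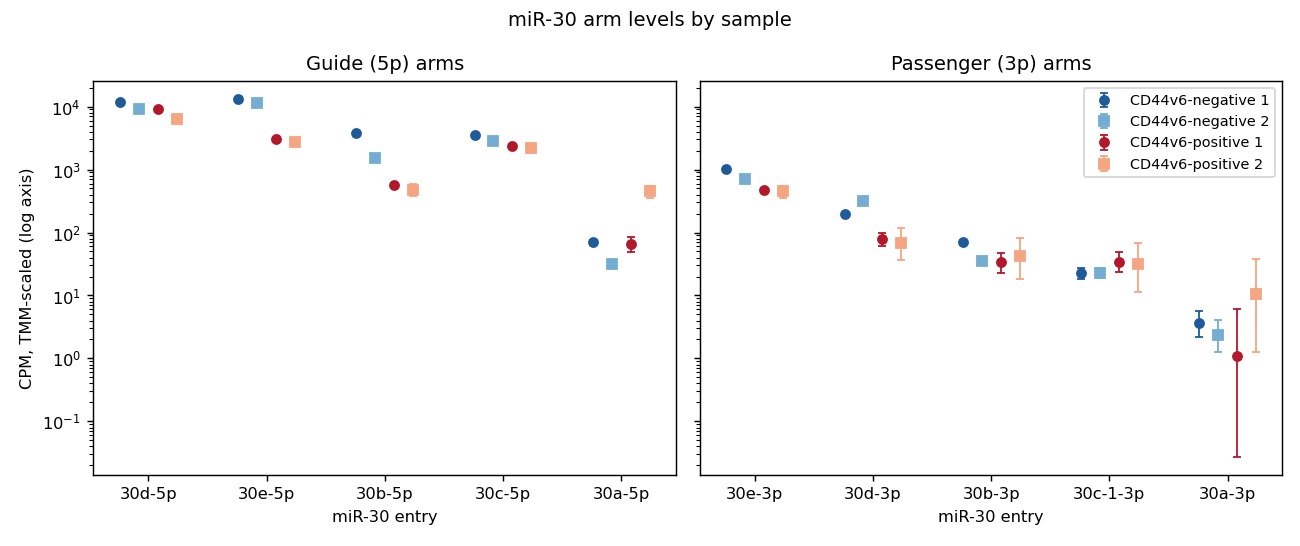
TMM-scaled CPM on a log axis for the miR-30 guides (left) and passengers (right) in each sample, with exact 95% Poisson intervals that cover counting error only; miR-30c-2-3p, at 0 reads in all, is not drawn. Both CD44v6-positive samples lie below both CD44v6-negative samples for miR-30e-5p and miR-30b-5p, and miR-30a-5p is high in CD44v6-positive sample 2 only.

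The chromosome 6 cluster was the scarcest, and its guide was the member with a positive value. hsa-miR-30a-5p was at 69.8 and 31.7 CPM in the CD44v6-negative samples, from 365 and 175 reads, and at 64.7 and 448 CPM in CD44v6-positive samples 1 and 2, from 60 and 86 reads. CD44v6-positive sample 1 lay within the CD44v6-negative range and only CD44v6-positive sample 2 above it, so the groups overlapped. The log2 fold change was 2.31 ± 0.99 (edgeR adjusted p = 0.177), and without CD44v6-positive sample 2 it was 0.54. It passed in 3 alternatives with edgeR, total count scaling (2.85, adjusted p = 0.0278), the replicate block (1.86, adjusted p = 0.00703) and the fit without CD44v6-positive sample 1 (3.03, adjusted p = 0.00982), which leaves CD44v6-positive sample 2 as the lone sample of its group. Its passenger hsa-miR-30a-3p was not tested, since only 19 and 13 reads came from the CD44v6-negative samples and 1 read and 2 reads from the CD44v6-positive samples. In CPM these were 3.64 and 2.36 against 1.08 and 10.4, with exact Poisson 95% intervals for the last 2 of 0.0273 to 6.01 and 1.26 to 37.7.

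Some markers of other tissues and some of intestinal epithelium were also high in CD44v6-positive sample 2. The liver miRNA miR-122-5p was at 4.59 and 3.99 CPM in the CD44v6-negative samples and at 48.6 and 610 CPM in CD44v6-positive samples 1 and 2. The stromal miR-143-3p was at 1084 and 665 CPM against 746 and 4972 CPM, and the red cell miR-451a at 24.9 and 7.62 CPM against 15.1 and 281 CPM. These 3 were picked from the 18 markers after their values were seen. The other stromal marker read in every sample, miR-145-5p, lay the other way, at 179 and 197 CPM against 100.4 and 57.3 CPM, lowest in CD44v6-positive sample 2. The endothelial miR-126-3p and miR-126-5p were also lower, with each CD44v6-positive sample below each CD44v6-negative sample. The 5 stroma and muscle markers summed to 1266 and 862 CPM in the CD44v6-negative samples and 852 and 5029 CPM in the CD44v6-positive samples. Nearly all of the sum in CD44v6-positive sample 2 was miR-143-3p. The 7 blood markers summed to 3138 and 1413 CPM against 3784 and 3737 CPM. Among the intestinal epithelial markers, CD44v6-positive sample 2 was likewise the highest for miR-192-5p, at 1888 and 1322 against 1032 and 4560 CPM, for miR-194-5p, at 116 and 78.5 against 97.1 and 235 CPM, and for miR-215-5p, at 60.8 and 29.6 against 59.3 and 250.1 CPM. The high values of that sample were therefore not confined to markers of other tissues, and their part in the miR-30a-5p value was not tested.

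**Figure D3:**
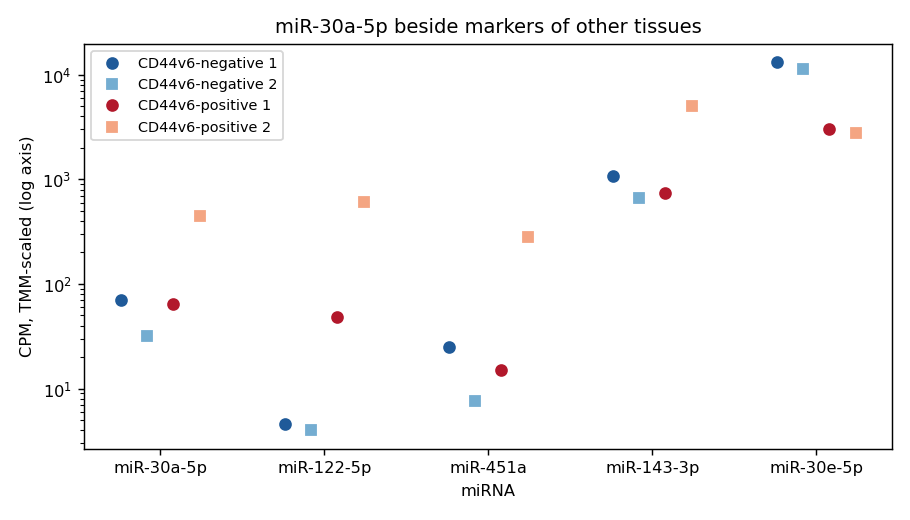
TMM-scaled CPM on a log axis in each sample for miR-30a-5p, 3 markers of other tissues chosen after their values were seen (liver miR-122-5p, red cell miR-451a, stromal miR-143-3p) and miR-30e-5p. CD44v6-positive sample 2 is the highest for the first 4, at 448 CPM for miR-30a-5p, and the lowest for miR-30e-5p.

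The ratio of the near-identical pair was higher in both CD44v6-positive samples, and by far the highest in CD44v6-positive sample 2. There were 0.532 and 0.283 reads of miR-30a-5p per 100 reads of miR-30e-5p in the CD44v6-negative samples, and 2.12 and 16.2 in CD44v6-positive samples 1 and 2. For the passengers, miR-30a-3p stood at 0.354 and 0.331 reads per 100 of miR-30e-3p in the CD44v6-negative and at 0.231 and 2.33 in the CD44v6-positive samples, the last 2 from 1 and 2 reads. The guide ratio went with a lower miR-30e-5p level in both CD44v6-positive samples and a higher miR-30a-5p level in the second, while the passenger ratio overlapped.

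The make-up of the guide pool can be read within each library, with no scaling between libraries. In CD44v6-negative samples 1 and 2, miR-30e-5p held 40.6% and 45.2% of the summed guide reads and miR-30d-5p 36.7% and 37.0%. In CD44v6-positive samples 1 and 2, miR-30e-5p held 20.1% and 22.4% and miR-30d-5p 60.2% and 52.2%. The leading guide was therefore miR-30e-5p in both CD44v6-negative samples and miR-30d-5p in both CD44v6-positive samples. The ratio of miR-30e-5p to miR-30d-5p reads was 1.11 and 1.22 against 0.334 and 0.430. Its exact 95% intervals ran from 1.095 upward in the CD44v6-negative and up to 0.477 in the CD44v6-positive samples, without overlap between the groups. They cover counting error only, and the intervals of the 2 CD44v6-negative samples did not overlap each other either. miR-30c-5p had a share of 10.8% and 11.4% against 15.5% and 17.8%, miR-30b-5p of 11.6% and 6.22% against 3.75% and 3.90%, and miR-30a-5p of 0.216% and 0.128% against 0.426% and 3.64%.

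For each of the 5 guides, the shares of the CD44v6-positive samples lay on 1 side of those of the CD44v6-negative samples. These shares are tied to one another, and no background of such shares was computed. For single levels, which are a different measure, the groups did not overlap in either direction for 59.5% of all tested miRNAs. The mean share of miR-30e-5p was 42.9 ± 3.22% in CD44v6-negative and 21.3 ± 1.63% in CD44v6-positive cells (SD, n = 2; exact permutation test, two-sided p = 0.333), and that of miR-30d-5p was 36.9 ± 0.205% and 56.2 ± 5.68%. With 2 samples against 2, 0.333 is the smallest p this test can give, for each guide and also after adjustment over the 5, so no share can pass a threshold of 0.05. For miR-30a-5p the difference in mean share rests on CD44v6-positive sample 2. Shares sum to 100%, so the lower shares of miR-30e-5p and miR-30b-5p go by construction with a higher summed share of the other guides.

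**Figure D4:**
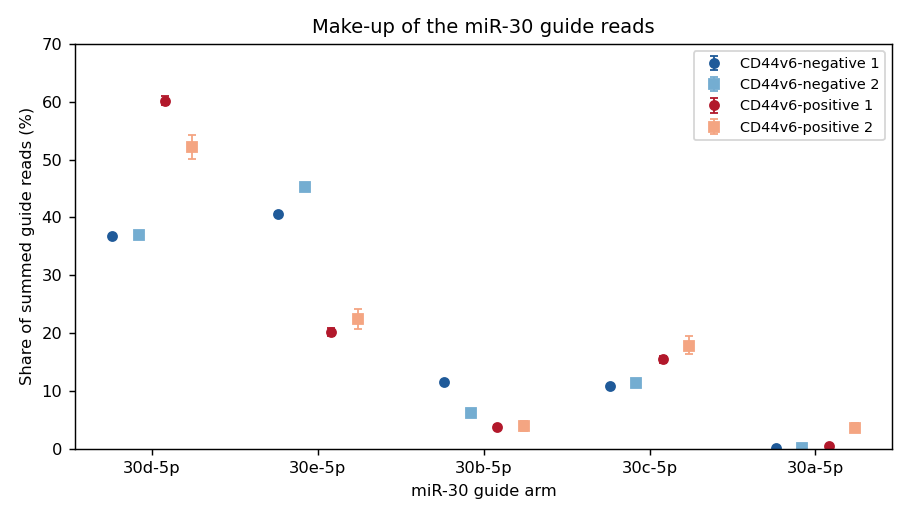
Share of each guide in the summed reads of the 5 miR-30 guides, in percent, for each sample, with exact 95% binomial intervals that cover counting error only. miR-30d-5p is at 36.7% and 37.0% in the CD44v6-negative and 60.2% and 52.2% in the CD44v6-positive samples, and miR-30e-5p is at 40.6% and 45.2% against 20.1% and 22.4%.

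Within the chromosome 8 cluster the balance of the guides also differed. There were 31.7 and 16.8 reads of miR-30b-5p per 100 of miR-30d-5p in the CD44v6-negative and 6.23 and 7.47 in the CD44v6-positive samples, while the passengers had 35.1 and 11.2 reads of miR-30b-3p per 100 of miR-30d-3p against 42.5 and 61.5. Neither ratio overlapped between the groups, and their values lay in opposite directions. The exact 95% intervals of the passenger ratio ran from 27.0 to 65.5 and from 22.1 to 160.2 reads per 100 in the CD44v6-positive samples, the last from 8 and 13 reads. Both cover CD44v6-negative sample 1, so the direction of the passenger ratio was not resolved even against counting error. For both ratios the intervals of CD44v6-negative samples 1 and 2 did not overlap each other, so samples of a group differed by more than counting error. miR-30c-5p kept a ratio to miR-30d-5p of 0.294 and 0.309 against 0.257 and 0.342, which overlapped. Over the 7 ratios computed, 5 did not overlap, each with an exact permutation p of 0.333 (two-sided) and an adjusted p of 0.467. No background of ratios was computed, and the ratios share members. By the different measure of single levels, 59.5% of tested miRNAs did not overlap.

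Arm use differed between hairpins. For MIR30E, 3p reads made up 7.25% and 5.97% of the reads of both arms in the CD44v6-negative samples and 13.3% and 14.0% in the CD44v6-positive samples. The exact 95% intervals of the 2 groups did not overlap, with a highest CD44v6-negative bound of 7.44% and a lowest CD44v6-positive bound of 11.3%. Such intervals cover counting error only and not the spread between samples. Those of CD44v6-negative samples 1 (7.06% to 7.44%) and 2 (5.79% to 6.15%) did not overlap each other either. For MIR30B the share was 1.83% and 2.21% against 5.55% and 8.00%, the last from 8 of 100 reads, with bounds of 2.54% and 3.52% that also did not meet. miR-30c-1-3p made up 0.637% and 0.791% of its reads with miR-30c-5p in the CD44v6-negative and 1.45% and 1.41% in the CD44v6-positive samples, and the interval of the last, 0.517% to 3.03%, covers both CD44v6-negative values.

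MIR30D and MIR30A had the opposite order. The 3p share of MIR30D was 1.65% and 3.27% in the CD44v6-negative samples and 0.854% and 1.04% in the CD44v6-positive samples, and the interval of CD44v6-positive sample 2, which reaches 1.78%, covers CD44v6-negative sample 1. That of MIR30A was 4.95% and 6.91% against 1.64% and 2.27%, from 1 of 61 and 2 of 88 reads, with intervals that overlap. All 5 comparisons gave an exact permutation p of 0.333 (two-sided), the smallest possible, and the same after adjustment over the 5. Among 110 hairpins with at least 20 reads of both arms together in every sample, the 3p shares of the groups did not overlap in 68.2%. They did not overlap in any of the 4 miR-30 hairpins of that set, which are too few to tell from this background. The change in percentage points was 6.998 for MIR30E, 4.75 for MIR30B, -3.98 for MIR30A and -1.51 for MIR30D. The median absolute change over the 110 was 1.69 points, more than that of MIR30D.

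**Figure D5:**
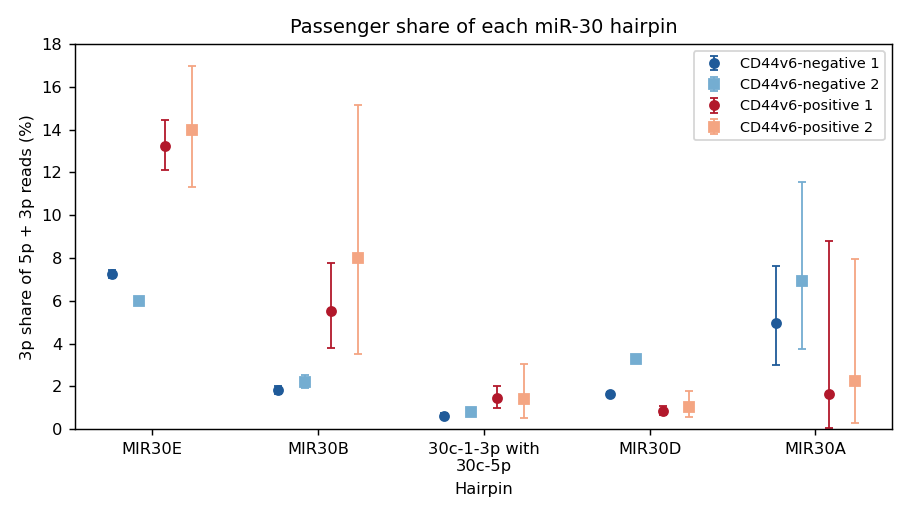
3p reads as a percentage of 5p and 3p reads for each miR-30 hairpin and sample, with exact 95% binomial intervals that cover counting error only; for miR-30c the 3p arm is that of MIR30C1. The CD44v6-positive samples are higher for MIR30E (13.3% and 14.0% against 7.25% and 5.97%) and MIR30B and lower for MIR30D, and the intervals of MIR30A overlap.

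The 3 miRNAs outside the family whose level over the 4 samples was most like that of the summed guides were miR-126-3p, miR-23b-3p and miR-671-5p. The likeness was the root mean square distance of centred log2(CPM + 1), which was 0.0593, 0.110 and 0.157 among 182 candidates with a mean of at least 100 CPM. The summed guides were at 32292 and 24843 CPM in the CD44v6-negative and 15182 and 12304 CPM in the CD44v6-positive samples, and miR-126-3p at 336 and 267 against 173 and 141 CPM. With 4 samples, many miRNAs can resemble such a profile.

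A list of 10 miRNAs that mark or maintain the epithelial state (the miR-200 family, miR-203a, miR-192, miR-194, miR-215 and miR-34a) was measured alongside. With edgeR 0 of the 10 passed, 4 had an unadjusted p under 0.05 (all lower, against 17.5% of all tested miRNAs in that direction), DESeq2 called 3 (all lower, against 5.25%) and limma-voom 0. Of these 10, 7 had negative and 3 positive log2 fold changes, with a median of -0.91 against -0.31 over all tested miRNAs. The 3 positive members were miR-192-5p, miR-194-5p and miR-215-5p, for each of which CD44v6-positive sample 2 alone lay above the CD44v6-negative samples. Both CD44v6-positive samples lay below both CD44v6-negative samples for 4 of the 10, against 34.6% of all tested miRNAs.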

How the data were processed

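Small RNA reads of 4 sorted HCT116 samples, 2 CD44v6-positive and 2 CD44v6-negative, were used as the authors deposited them: raw counts per mature miRNA in whole numbers. The authors' build was GRCh38 and their tools were Bowtie 0.12.9, beside cutadapt 1.10, CASAVA 1.8.2 and DESeq2, per the submitters' processing notes; what each did, and the annotation, is not given in the sources used here. The normalized table was not used.

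The counts of 570 of 2026 entries passed filterByExpr (minimum count 10, minimum total 15) and were tested with edgeR 4.0.16 in R 4.3.3 (TMM, glmQLFit, glmQLFTest, Benjamini-Hochberg over all 570, threshold 0.05); DESeq2 1.42.0 and limma 3.58.1 voom were alternatives. Standard errors were derived from the log2 fold change and its F statistic. Shares have exact Clopper-Pearson 95% intervals. Hairpin positions are from GENCODE release 29, hairpin GC content was matched for 2024 entries, and sequences are from RefSeq. The members, lists and the rule for named miRNAs (all members, seed sharers, the 3 nearest profiles) were chosen with earlier results of these data known.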

Additional observations from a re-analysis of the deposited data

How the results depend on the processing

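With edgeR 0 miRNAs passed over all tested, also with DESeq2 size factors, upper quartile scaling, the 10 CPM filter and the GC correction, which was chosen after seeing the data. There were 48 calls with total count scaling, 77 with no filter, 52 with DESeq2, 4 with limma-voom, and 26 to 55 with 1 sample left out, where the lone sample is assumed to vary like the other group. With the replicate number as a block there were 228 calls. The numbers are not stated to mark a shared batch, and the deviations of same-numbered samples correlated at 0.375 over the tested miRNAs. Total count and upper quartile scaling moved the median log2 fold change of all tested miRNAs by 0.31 and 0.34.

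Over 104 recomputed member values, 86 kept their direction and side of the threshold, 14 passed it and 4 turned sign. miR-30e-5p ran from -2.48 to -1.56 and passed in 5 of 13 settings, miR-30b-5p from -2.77 to -1.05 and passed in 4, and miR-30a-5p from 0.54 to 3.06 and passed in 3; miR-30d-3p and miR-30e-3p passed only with the replicate block. The sign turned for miR-30c-5p (0.31) and miR-30d-5p (0.20) with the GC correction, for miR-30d-5p without CD44v6-positive sample 2 (0.012, against a lowest value of -0.83 with 1 sample left out) and for miR-30b-3p without CD44v6-negative sample 1 (0.15, against a lowest of -0.74); the cause was not tested. Shares of guides and of 3p reads kept their direction with any 1 sample left out. This was fixed in advance, since the groups did not overlap for any of these shares. The shallowest library, with 154481 reads, limits the passengers most.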
